A study of Mus musculus with 30 samples.

Results

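Collagens, laminins and integrins are the matrix proteins that surround or underlie cells and the receptors that hold cells to them. The genes described here are every mouse gene whose symbol follows the collagen chain, laminin chain or integrin subunit naming pattern, taken from all 7 deposited tables. They came to 58 of the 13456 genes that appear in any table, made up of 26 collagens, 8 laminins and 24 integrins. Only 16 of them (2 collagens, 5 laminins and 9 integrins) appeared in every table, because a table leaves out whatever fell below the expression filter of the authors. Col17a1, the collagen of the hemidesmosome, was listed in none.

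Messenger RNA was sequenced in 30 libraries, 10 groups of 3, from 3 experiments on mouse colon. The first compared colon epithelium of C57BL/6J mice, either Smad4+ controls or Smad4ΔLrig1 mice, which the submitters also call Smad4 knockout. Smad4 carries the signals of TGFB and BMP ligands to the nucleus, and Lrig1 names a gene expressed in intestinal stem and progenitor cells. The second used cultured cells labelled IMCfl/fl Smad4+ colonocytes, which were kept as controls or treated with TNF, with TGFB1 and BMP2, or with all 3 ligands (doses and times are not stated in the labels used here). The third used colonoids, organoids grown from colon epithelium, of the lines L42, L43 and L46. Each line received vehicle, TNF at 100 ng/mL, TGFB1 at 3 ng/mL with BMP2 at 10 ng/mL, or all 3 ligands. Neither the colonoid genotype nor the age of the mice is stated in the labels used here. The series describes the 3 samples of a group as biological replicates. The labels do not say how the 3 colonocyte cultures of a group were separated, and a p-value there covers the spread among those cultures, which may be technical.

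Collagens are triple helices of 3 chains. Types I, III and V form the fibrils of connective tissue, type IV forms the sheet-like network of basement membranes, type VI forms beaded filaments, and type VII anchors the epithelial basement membrane to the tissue beneath. Laminins are trimers of an alpha, a beta and a gamma chain. Lama3 and Lamb3 belong to an adhesive laminin of many epithelia, whereas Lama5 and Lama4 pair with Lamb1 or Lamb2 and Lamc1. Integrins are pairs of an alpha and a beta subunit. Itga2, Itga3 and Itga6 pair with Itgb1 and bind collagen or laminin, Itga6 with Itgb4 forms the hemidesmosome receptor of epithelial cells, and Itgav pairs with Itgb1, Itgb3, Itgb5, Itgb6 or Itgb8. The pairs of Itgav with Itgb6 and with Itgb8 can release TGFB from its latent form.

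The promoter-proximal sequences of 5 members on which the results below turn are shown here, as the 250 bases before a RefSeq start site (RefSeq, GRCm38.p6, 5′ to 3′ on the strand of the gene). Lamb3, Itgav and Itgb5 rose with TGFB1 and BMP2 in both culture systems. Itga2 rose in the Smad4 knockout colon and in colonoids, and Col27a1 was the collagen with the largest change in colonocytes. The windows lie at chr1:193301744-193301993 (plus) for Lamb3, chr2:83724147-83724396 (plus) for Itgav, chr16:33829415-33829664 (plus) for Itgb5, chr13:114932101-114932350 (minus) for Itga2 and chr4:63215162-63215411 (plus) for Col27a1. Capitals mark the letters CAGAC or their reverse complement GTCTG, the short core that SMAD proteins are known to bind.
Lamb3: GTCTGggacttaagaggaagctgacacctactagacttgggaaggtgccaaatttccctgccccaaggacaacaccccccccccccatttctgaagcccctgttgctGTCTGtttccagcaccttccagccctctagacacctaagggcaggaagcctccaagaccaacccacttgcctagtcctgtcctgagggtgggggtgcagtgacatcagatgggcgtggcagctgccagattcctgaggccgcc
Itgav: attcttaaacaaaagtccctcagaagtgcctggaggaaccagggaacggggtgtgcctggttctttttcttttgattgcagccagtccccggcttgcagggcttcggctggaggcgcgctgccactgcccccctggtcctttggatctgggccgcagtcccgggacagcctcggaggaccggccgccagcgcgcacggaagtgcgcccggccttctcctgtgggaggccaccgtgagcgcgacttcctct
Itgb5: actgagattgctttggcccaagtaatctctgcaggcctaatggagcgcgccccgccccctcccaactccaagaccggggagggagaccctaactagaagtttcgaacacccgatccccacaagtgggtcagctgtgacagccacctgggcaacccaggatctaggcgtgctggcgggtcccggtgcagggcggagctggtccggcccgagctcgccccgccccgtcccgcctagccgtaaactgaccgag
Itga2: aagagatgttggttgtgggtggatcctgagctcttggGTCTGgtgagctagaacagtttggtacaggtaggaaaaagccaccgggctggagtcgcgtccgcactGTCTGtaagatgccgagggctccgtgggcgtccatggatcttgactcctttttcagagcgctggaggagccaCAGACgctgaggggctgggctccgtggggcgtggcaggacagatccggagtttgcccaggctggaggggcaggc
Col27a1: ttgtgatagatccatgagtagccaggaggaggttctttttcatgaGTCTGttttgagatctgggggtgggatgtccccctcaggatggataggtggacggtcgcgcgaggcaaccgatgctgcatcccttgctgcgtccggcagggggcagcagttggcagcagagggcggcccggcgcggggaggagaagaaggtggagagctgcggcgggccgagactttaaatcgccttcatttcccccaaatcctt
The letters CAGAC, searched on both strands, occurred 2 times in the Lamb3 window shown (and 1 time in the other RefSeq window of that gene), 3 times in that of Itga2 and 1 time in that of Col27a1, and they were not found in the windows of Itgav and Itgb5. RefSeq windows were at hand for 40 of the 58 members, 45 windows in all. Of these, 25 (55.6%) held CAGAC, against 42.2% of 32851 windows of all genes. The longer palindrome GGCGCC stood in 7 of the 45 (15.6%) against 9.59% of all windows. The AP-1 letters TGANTCA stood in 2 of the 45 against 6.75% of all. The member windows were also richer in G and C, with a median of 59.2% against 52.4%. These shares describe the letters only. In the GENCODE annotation of GRCm38, all protein-coding, Itgav spans chr2:83724397-83806916 and Itga2 chr13:114833081-114932100, and their windows end where the gene starts. Lamb3 spans chr1:193207699-193343878 and Col27a1 chr4:63214004-63334991, and their windows lie inside these spans, since longer transcripts start further upstream. Col4a1 and Col4a2, which encode the paired chains of the common type IV collagen, start 21 bases apart on opposite strands of chromosome 8, with overlapping first bases.

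Recovered reads came to between 21.6 and 61.7 M per library. Levels are in CPM (counts per 1 M reads, over the effective library size of a table), each table having been normalized on its own, and differences are on the log2(CPM + 1) scale with their standard error (SE). A gene passed the test when its p-value from limma, adjusted by Benjamini-Hochberg over all genes of the table, was below 0.05. The labelled tissues were set beside markers. All 12 epithelial markers (Epcam, Cdh1, Vil1, Cdx2, Muc2 and others) were listed in colon and in colonoids. In the colonocyte tables only 3 or 4 of the 12 were listed (Krt8, Krt18, Krt19 and, with TNF, Cdh1), summing to 35.5 to 48.1 CPM in control cultures, and Epcam, Krt20, Vil1, Cdx1, Cdx2, Cldn7, Tff3 and Muc2 were not listed. The same cultures listed 8 of 12 markers of fibroblasts and stroma, summing to 4029 to 4104 CPM. Most of that sum was Vim, with a mean of 3133 CPM, followed by Dcn at 485 and Acta2 at 345 CPM. Pdgfra, Pdgfrb and Des averaged only 2.42, 2.97 and 3.98 CPM, and Thy1, Lum, Myh11 and Prrx1 were not listed. The data therefore go against an epithelial identity of the cultures, and they are called here by their label. Fibroblast markers summed to 25.8 to 28.1 CPM in control colon (3 of 12 listed) and to 5.45 to 7.78 CPM in vehicle colonoids (2 of 12 listed).

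Levels per kilobase of exon, which allow a rough comparison of genes within a table, set the cultures apart. The length counts the exons of every annotated transcript, so it can exceed that of the messenger RNA made. In control colonocytes the collagens led, with Col5a2 at 346, Col1a1 at 329 and Col4a1 at 326 CPM per kb, and the 26 collagens summed to 1718 ± 48.2 CPM per kb (SD, n = 3). The chain ratios of types I and VI were uneven. Col1a1 per kb stood at 115 to 156 times Col1a2, although type I collagen is usually built of both chains. Col6a1 stood at 836 to 1319 times Col6a3. The size of such ratios depends on the lengths used, which were 6563 bases for Col1a1 and 12426 for Col1a2. The type IV pair was more even, with Col4a1 at 1.56 to 1.65 times Col4a2. In vehicle colonoids 5 collagens were listed in the table that compares them with TNF, summing to 47.9 ± 14.7 CPM per kb, with Col4a1 at 24.2 and Col4a2 at 19.1. Among the colonoid laminins, Lamb3 led at 39.3 CPM per kb, and Lama5 stood at 22.2. In control colon 4 collagens summed to 3.84 ± 1.29 CPM per kb and the laminins to 18.4 ± 2.97, with Lamb3 first at 10.9. Itgb1, the beta subunit shared by most integrins, was the highest integrin in all 3 systems, at 85.9 CPM per kb in control colon, 360 in control colonocytes and 118 in vehicle colonoids. Levels in different tables were scaled separately, so these values are set side by side without a test.

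**Figure D1:**
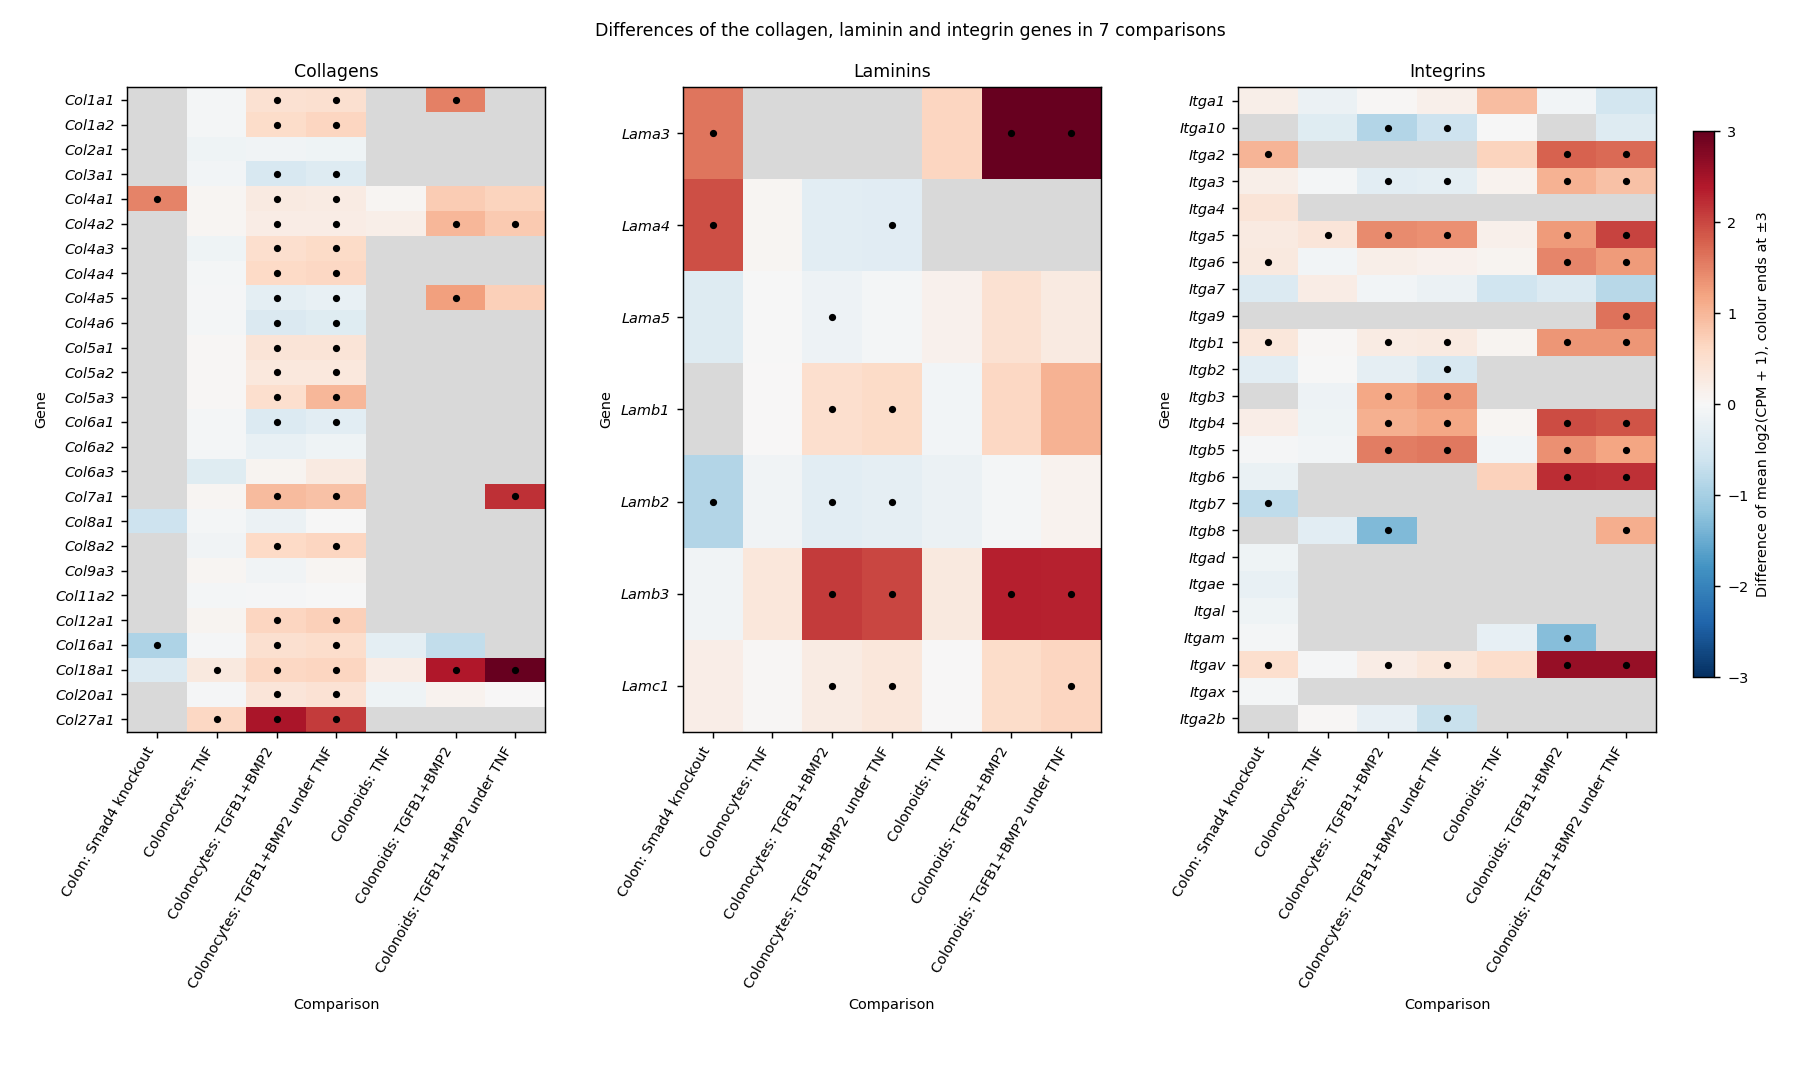
Differences of mean log2(CPM + 1) for 57 of the 58 genes (rows, in 3 panels by family) in the 7 comparisons (columns); red is higher and blue lower in the knockout or treated group, grey means not listed in that table, and a dot marks an adjusted p below 0.05 by limma. The colonocyte columns hold all 26 collagens, the colonoid columns hold the largest laminin and integrin differences, and the 2 TNF columns hold few dots.

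In the Smad4 knockout colon, 8 of the 30 members listed were higher and 3 lower than in control colon, while 39.7% of all genes tested in that table passed in either direction (19.8% higher and 19.9% lower). The share of members that passed was thus close to that of all genes. The median difference of the 30 members was -0.04, against 0.00 over all genes. Smad4 itself stood at 132, 148 and 152 CPM in control and at 47.8, 59.2 and 46.1 CPM in knockout libraries, a fall of 1.49 on the log2 scale that goes with the labels and leaves part of the transcript. Epithelial markers summed to 22412 to 24001 CPM in control and 19559 to 19767 CPM in knockout colon, with 1 of 12 higher and 4 lower. One knockout library held Krt19, an epithelial keratin, at 173 CPM against 2239 and 2672 in the others and 2519 to 3607 in controls.

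Among laminins, Lama3 rose from 2.56, 2.18 and 2.3 CPM in control to 8.38, 7.03 and 13 CPM in knockout libraries. Every knockout library lay above every control, and the difference was 1.61 (SE 0.20, adjusted p = 4.5e-04). Its partner Lamb3 did not pass, at 61.4, 80.2 and 73.9 CPM in control and 65.4, 58.8 and 75.2 CPM in knockout libraries, and the 95% interval of its difference ran from -0.40 to 0.18. Per kb of exon, Lamb3 stood at 38.9 to 59.7 times Lama3 in control and at 9.39 to 13.6 times Lama3 in knockout colon, so the ranges of this chain ratio did not overlap. Lama4, a laminin chain of vessels and mesenchyme, went from 0.554, 0.628 and 0.717 CPM to 5.87, 9.29 and 2.49 CPM (1.94, SE 0.32, adjusted p = 0.0015). It reached the filter of 1 CPM only through the knockout libraries, and without it 7 members were higher. Lamb2 was lower, from 3.36, 6.47 and 5.09 CPM to 1.59, 4.36 and 1.31 CPM (fell by 0.88, SE 0.31, adjusted p = 0.045), with overlapping groups. That call was lost when any of 4 libraries was left out (replicates 2 and 3 of control, 1 and 3 of knockout). Lama5 and Lamc1 did not pass, at -0.38 and 0.20.

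Among collagens, Col4a1 rose from 1.8, 1.55 and 1.62 CPM to 4.69, 11.7 and 4.81 CPM, a 4.26-fold change of the means with no overlap. On the log2(CPM + 1) scale Col4a1 differed by 1.496 (SE 0.28, adjusted p = 0.0026). Its partner Col4a2 was not listed in this table. Col16a1, a minor collagen associated with fibrils, fell by 0.91 (SE 0.18, adjusted p = 0.0039), from 5.19, 7.06 and 5.02 CPM to 3.23, 2.58 and 1.96 CPM. Col8a1 and Col18a1, the source of endostatin, were not called, at -0.62 and -0.40. Beside these, the 3 fibroblast markers listed (Pdgfrb, Thy1 and Vim) summed to 25.8 to 28.1 CPM in control and 18.1 to 21.6 CPM in knockout colon, with Vim lower, and Dcn, Lum, Acta2 and Pdgfra were not listed. Of 7 endothelial markers only Vwf was listed, at 1.40 to 2.39 CPM in control and 1.84 to 3.10 CPM in knockout colon. Their part in the collagen and laminin values was not tested. In bulk tissue, a different number of cells of a type and a different amount of RNA per cell cannot be told apart.

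Among integrins, the collagen receptor subunit Itga2 rose from 33.6, 39.7 and 38.5 CPM to 78.2, 73.6 and 78.7 CPM, a 2.06-fold change of the means (1.03, SE 0.10, adjusted p = 2.0e-04). The spread within both groups was small beside the gap between them. Itgav followed, from 25.4, 27.2 and 27.1 to 36.5, 38.7 and 40.0 CPM (0.51, SE 0.10, adjusted p = 0.0042). Itgb1 and Itga6 rose by less, by 0.34 and 0.30 (SE 0.09 for each, adjusted p = 0.017 and 0.028). Those 2 calls did not hold with fewer libraries. Itga6 lost its call when any of 5 of the 6 libraries was left out, although its difference stayed between 0.26 and 0.34 in those fits. Itgb1 lost its call when replicate 2 of either group was left out. Itgb6 and Itgb5, partners of Itgav, stood at -0.20 and -0.03, and Itga3, Itga5 and Itgb4 at 0.18, 0.26 and 0.19, and none of these passed. Itgb7, a lymphocyte integrin chain that pairs with Itga4 and Itgae, was the only integrin that fell, from 5.3, 7.65 and 6.75 CPM to 4.02, 3.67 and 2.61 CPM (-0.77, SE 0.18, adjusted p = 0.0079). Its partners Itga4 and Itgae did not pass (0.39 and -0.22), nor did the other leukocyte integrins Itgb2, Itgal, Itgad, Itgax and Itgam. Of 11 other leukocyte markers 6 were listed, summing to 48.1 to 65.2 CPM in control and 43.1 to 54.4 CPM in knockout colon. Of these, Coro1a and Cd3d were lower in the knockout (-0.87 and -0.88). Ptprc, Cd3e, Laptm5 and Cd52 did not pass (0.11, 0.18, -0.27 and -0.12). The part of these markers in the Itgb7 value was not tested.

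**Figure D2:**
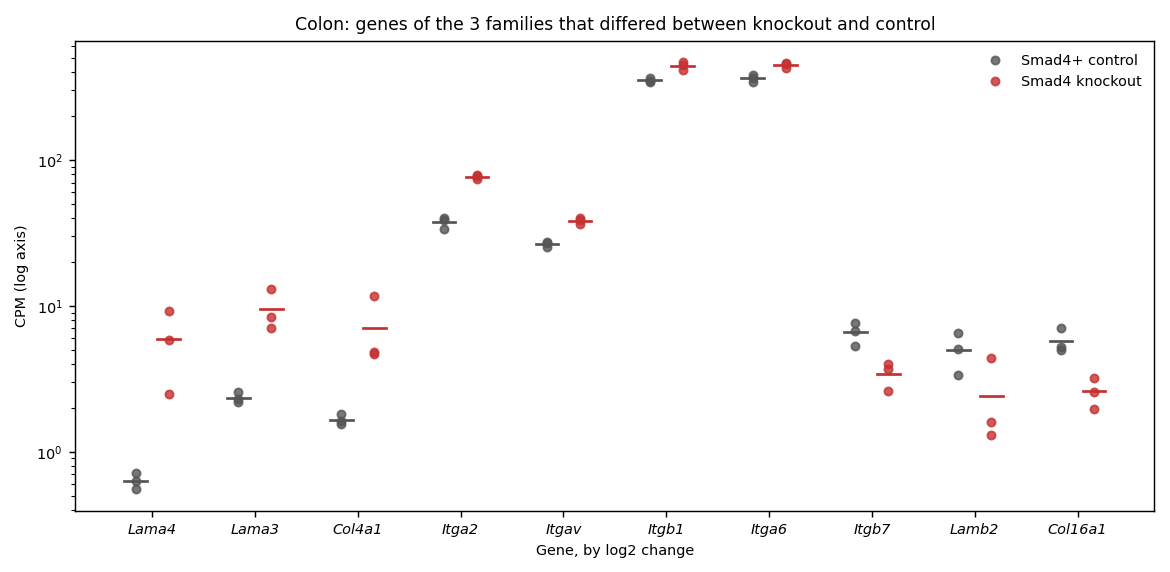
CPM (log axis) of 10 of the 11 members that passed the test in colon, ordered by log2 change; each point is 1 library, grey for Smad4+ control and red for knockout, and bars are group means. Itga2 and Itgav separated with little spread, whereas the 3 knockout libraries of Lama4 ran from 2.49 to 9.29 CPM and the Lamb2 groups overlapped.

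In colonocytes, TNF changed few genes, and the share of members that passed was close to that of all genes. Of the 47 members listed, 3 were higher and none lower by limma, edgeR or DESeq2 (3 were lower at an unadjusted p below 0.05 by limma), against 6.28% of all genes tested (4.61% higher and 1.67% lower). The collagen Col27a1, a fibrillar collagen of cartilage, rose from 12.8, 14.5 and 14 CPM to 23, 19.5 and 22.9 CPM (0.63, SE 0.09, adjusted p = 0.0011). The fibronectin receptor subunit Itga5 rose from 132, 126 and 122 CPM to 163, 164 and 163 CPM (0.36, SE 0.05, adjusted p = 5.1e-04). Col18a1 rose from 29.7, 29.2 and 26 CPM to 35.4, 35.4 and 33.4 CPM (0.29, SE 0.07, adjusted p = 0.032), and it lost its call when replicate 1 or 2 of either group was left out. None of the 3 had overlapping groups, and over all genes 13.0% lay higher without overlap. The abundant collagens stayed close to their control levels: Col1a1 averaged 2157 and 2067 CPM without and with TNF, Col5a2 3316 and 3413 CPM, and Col4a1 2436 and 2545 CPM, with 95% intervals of the log2 difference from -0.17 to 0.05, from -0.07 to 0.15 and from -0.03 to 0.15. Over all laminins the differences ran from -0.11 (Lamb2) to 0.35 (Lamb3), and none passed.

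Same-numbered colonocyte cultures of the control and TNF groups deviated together, so the replicate number was also fitted as a block. Replicates 1 and 2 also went together across numbers (correlations of deviations 0.17 and 0.22, beside 0.27 for each same-numbered pair). Only replicate 3 stood clearly apart. With the block 7 of the 47 members passed (5 higher and 2 lower), against 20.3% of all genes (11.5% higher and 8.8% lower). The 4 added included Itga7, a laminin receptor subunit of muscle, which was higher (0.21, adjusted p = 0.0085), and Itga10, a collagen receptor subunit of cartilage (-0.36, adjusted p = 0.0015), and Lamb2 (-0.11, adjusted p = 0.02), both lower.

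TGFB1 with BMP2 moved most of the listed members in colonocytes. Without TNF, 26 of 47 members rose and 9 fell, while 30.2% of all genes passed in either direction (15.9% higher and 14.3% lower). The median difference of the members was 0.24, against -0.00 over all genes. With TNF present in both arms, 26 of 46 rose and 10 fell, against 31.9% of all genes (16.4% higher and 15.6% lower), with a median of 0.29 against -0.01. The 2 comparisons share no libraries. All 26 genes that rose without TNF were the 26 that rose with it, while over all genes tested in both settings 82.9% and 80.7% of those that rose were shared. Of the members that fell, 7 were shared, of 8 and 10 tested in both tables (87.5% and 70.0%, against 73.4% and 67.8% of all genes that fell). With TNF in both arms same-numbered cultures also deviated together (correlations of deviations 0.17, 0.16 and 0.41). Replicates 1 and 2 were not told apart there, at 0.08 and 0.22 across numbers. With the block 38 of 46 passed, against 43.3% of all genes. The 2 added were Col6a2 (-0.14, adjusted p = 0.0024) and Itga6 (0.14, adjusted p = 0.0098).

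The collagens rose in number but by small amounts, 16 of 26 higher and 4 lower in both settings. Over all genes 15.9% were higher and 14.3% lower without TNF, and 16.4% and 15.6% with it. The exception in size was Col27a1, which went from 12.6, 14.2 and 13.7 CPM to 79, 72.9 and 81.5 CPM without TNF, a 5.76-fold change of the means (2.44, SE 0.07, adjusted p = 1.2e-10). With TNF it went from 22.1, 18.8 and 22 CPM to 84, 99.6 and 93.5 CPM (2.09, SE 0.08, adjusted p = 3.4e-09). The fibril-forming Col1a1 rose from 2242, 2155 and 1959 CPM to 3084, 2719.6 and 2913 CPM (0.46, SE 0.06, adjusted p = 7.2e-05), and Col1a2 from 36.9, 34.4 and 23.8 to 54.4, 49.5 and 37.1 CPM (0.56, SE 0.15, adjusted p = 0.012). The Col1a2 groups nearly met, since replicate 3 was the lowest library of both, and the call was lost without replicate 1 or 2 of the treated group. Col7a1, the anchoring-fibril collagen, rose from 3.08, 2.91 and 3.18 CPM to 7.23, 5.78 and 7.68 CPM (0.95, SE 0.12, adjusted p = 4.2e-05). Col12a1 and Col18a1 rose by 0.64 and 0.61 (SE 0.07 for each). The other fibril chains Col5a1, Col5a2 and Col5a3 rose by 0.39, 0.31 and 0.51.

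Type IV collagen split by gene. Col4a1 rose from 2390.1, 2354 and 2434 CPM to 2844, 2826 and 2944 CPM (0.26, SE 0.05, adjusted p = 6.0e-04), and Col4a2 rose by 0.21 (SE 0.04, adjusted p = 0.0023). Col4a3 and Col4a4, chains of the network best known from kidney glomeruli, rose by 0.51 and 0.59 (SE 0.07 and 0.05). Col4a5 and Col4a6 moved the other way, from 287, 304 and 286 to 233, 245 and 232 CPM for Col4a5 (-0.30, SE 0.05, adjusted p = 2.7e-04), and from 165, 169 and 150.2 to 123, 115 and 119 CPM for Col4a6 (-0.43, SE 0.06, adjusted p = 4.8e-05). The groups did not overlap for any of these. Col3a1, the fibril collagen of soft tissue, had the largest fall of the family, from 1200.2, 1232 and 1069 CPM to 833, 819 and 836 CPM (-0.49, SE 0.05, adjusted p = 1.3e-05). Col6a1 fell by 0.41 (SE 0.10, adjusted p = 0.007), while Col6a2, another chain of that type, did not pass (-0.23, adjusted p = 0.11). The directions of all of these were the same with TNF in both arms, where Col3a1 stood at -0.40 and Col4a6 at -0.35, and there the Col6a1 call was lost without replicate 1 of the TNF group.

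Among the laminins of the colonocytes, Lamb3 changed most, from 1.9, 2.07 and 2.06 CPM to 12.3, 13.6 and 10.2 CPM, a 5.99-fold change of the means (2.11, SE 0.12, adjusted p = 2.4e-08). Lama3, its partner in epithelia, was not listed in any colonocyte table. The broadly expressed chains Lamb1 and Lamc1 rose by 0.51 and 0.24 (SE 0.05 for each), and Lamb2 fell by 0.31 (SE 0.08, adjusted p = 0.0067). Lama5 was slightly lower without TNF (-0.15, SE 0.05, adjusted p = 0.044), a call lost without any 1 of 4 libraries (replicates 1 and 2 of control, 2 and 3 treated), and it did not pass with TNF (-0.06). Lama4 stood at -0.32 without TNF, where it did not pass, and at -0.33 with it, where it did (adjusted p = 0.038). That call was lost without replicate 1 or 2 of the TNF group or 2 or 3 of the group given all 3 ligands.

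The integrins that rose most in colonocytes were subunits of fibronectin and vitronectin receptors, followed by Itgb4 of the hemidesmosome. Itgb5 went from 105, 108 and 119 CPM to 339, 327 and 301 CPM (1.53, SE 0.06, adjusted p = 1.1e-09). Itga5 went from 130.3, 124 and 119 CPM to 353, 339.9 and 311 CPM (1.42, SE 0.06, adjusted p = 1.2e-09). These were 2.91-fold and 2.68-fold changes of the means, with every treated library far above every control. Itgb3, another partner of Itgav, rose from 8.07, 8.1 and 5.6 to 18.7, 18.8 and 14.3 CPM (1.15, SE 0.14, adjusted p = 2.5e-05), and Itgb4 from 54.1, 52 and 49.3 to 114, 109 and 106 CPM (1.07, SE 0.06, adjusted p = 1.6e-08). Itgav, a partner of Itgb3 and Itgb5, and Itgb1, shared by most integrins, rose by 0.21 and 0.25 (SE 0.06 for each, adjusted p = 0.012 and 0.0034). The Itgav call was lost without replicate 1 or 2 of control or replicate 2 of the treated group. Itga6 did not pass (0.18, adjusted p = 0.075). Of the 3 that fell, Itgb8 went from 2.7, 3.3 and 1.34 CPM to 0.386, 0.227 and 0.372 CPM (-1.33, SE 0.20, adjusted p = 1.9e-04). Its mean reached 1 CPM only through the control cultures, and 8 members were lower without it. Itga10 went from 10.5, 12.7 and 9.86 to 5.04, 5.63 and 5.99 CPM (-0.87, SE 0.11, adjusted p = 5.2e-05), and the laminin receptor subunit Itga3 from 462, 454 and 403 to 354, 344 and 351 CPM (-0.33, SE 0.05, adjusted p = 4.2e-04). Itgb8 was not listed in the table with TNF in both arms. There Itga2b, the platelet integrin chain, and Itgb2 fell as well, by 0.66 and 0.49 (SE 0.10 and 0.15, adjusted p = 3.0e-04 and 0.023). The Itgb2 call was lost without replicate 2 or 3 of the TNF group or replicate 3 of the group given all 3 ligands.

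Whether the effect of TGFB1 with BMP2 differed with TNF was tested over all 12 colonocyte libraries. None of 46 members passed by limma, edgeR or DESeq2, against 0.00875% of all genes by limma, and 3 had an unadjusted p below 0.05 by limma. These were Col5a3 (0.49, adjusted p = 0.51), Col27a1 (-0.35, SE 0.11, 95% interval -0.59 to -0.12, adjusted p = 0.99) and Itga2b (-0.42, SE 0.13, adjusted p = 0.99). Col5a3 had risen from a mean of 16.5 to 24 CPM without TNF and from 16.6 to 34.3 CPM with it. For Lamb3 the interval of the difference ran from -0.47 to 0.25, and for Itgb5 from -0.18 to 0.26. Beside these changes, the 8 fibroblast markers listed summed to 3961 to 4038 CPM in control and 3688 to 4153 CPM in treated cultures without TNF. Vim makes up most of that sum and averaged 3078 and 3085 CPM, while Pdgfrb was higher (0.90, adjusted p = 4.0e-04) and Dcn and Twist1 were lower (-0.38 and -0.51). Of the keratins, Krt8 was higher (means of 1.15 and 4.24 CPM) and Krt19 lower (34.8 and 19.6 CPM). The endothelial receptor Kdr went from between 3.13 and 4.53 CPM to between 20.05 and 20.9 CPM. The part of these markers in the collagen and integrin values was not tested.

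**Figure D3:**
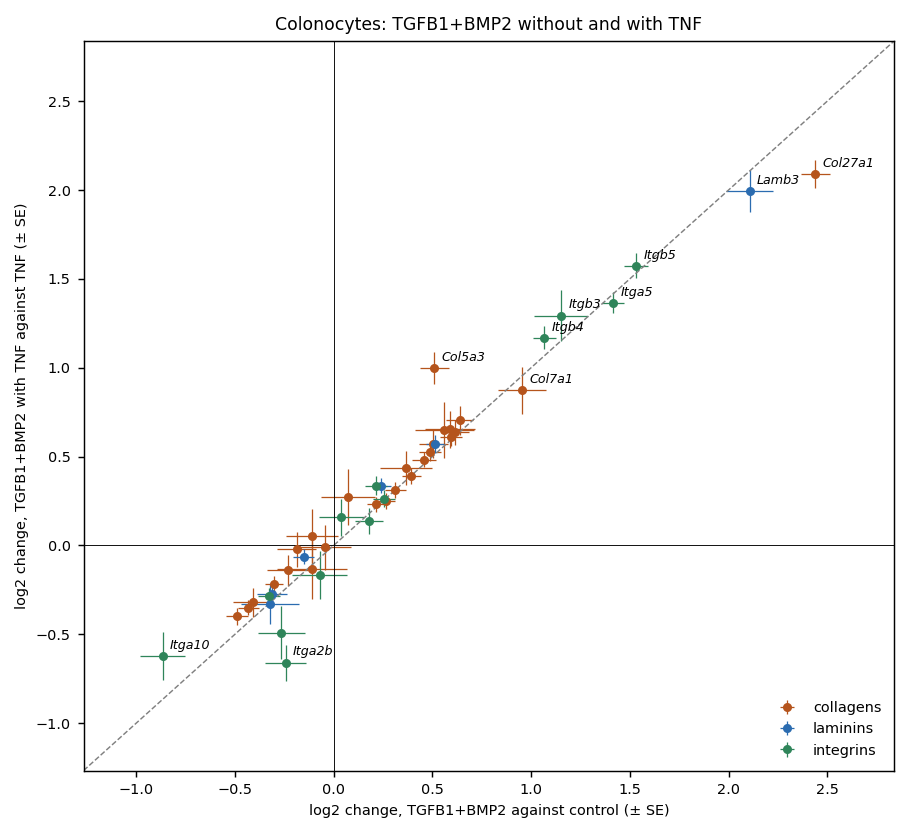
Difference in mean log2(CPM + 1) (± SE) with TGFB1 and BMP2 in colonocytes, without TNF on the horizontal axis and with TNF in both arms on the vertical axis; each point is 1 of 45 of the 46 members listed in both tables, coloured by family, and the dashed line marks equal differences. The points lie near the line, with Col27a1 (2.44 and 2.09) and Lamb3 (2.11 and 2.00) at the top and Col5a3 (0.51 and 1.00) above it.

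In colonoids, TNF alone called no member in the test without pairing. Of 25 members listed, 0 passed by limma or edgeR, 7 had an unadjusted p below 0.05, and DESeq2 called 1 (Itgb6), against 0.137% of all genes called by limma (0.12% higher and 0.0171% lower). Every line was measured with and without TNF, so the line was fitted as a block: 8 of the 25 passed, 7 higher and 1 lower, against 6.14% of all genes (3.76% higher and 2.39% lower). Lama3 and Lamb3 were among them. Lama3 went from 109, 85.4 and 146 CPM in L42, L43 and L46 to 175, 126 and 232 CPM, a rise of 0.68, 0.56 and 0.66 on the log2 scale in the 3 lines (adjusted p = 1.6e-04 with the block and 1 without it). Lamb3 rose by 0.12, 0.31 and 0.45 (adjusted p = 0.029 with the block and 1 without). Lines with more of both chains before treatment also had more after it, so the 2 groups overlapped although each line rose.

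Of the integrins, 4 were higher and 1 lower with the block, against 3.76% and 2.39% of all genes. Itgb6 rose from 37.7, 32.1 and 31.7 CPM to 63, 46.7 and 57.6 CPM in the 3 lines (0.70, adjusted p = 5.7e-04 with the block and 0.22 without), and its groups did not overlap. Itga2 rose from 148, 99.6 and 145 CPM to 230.0, 144 and 259.9 CPM (0.67, adjusted p = 4.3e-04 with the block and 0.95 without). Itgav rose by 0.52 (adjusted p = 0.0065 with the block and 1 without) and the collagen receptor subunit Itga1 by 0.92 (adjusted p = 0.011 and 0.8). Itga7 was lower in all 3 lines, at 26, 24.2 and 30.8 CPM before and 12.7, 23.1 and 18 CPM after (-0.59, adjusted p = 0.043 with the block and 0.89 without). No collagen passed with or without the block, their differences running from -0.29 (Col16a1) to 0.23 (Col18a1).

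TGFB1 with BMP2 raised most of the listed members in colonoids. Line L46 stood apart in both treated groups. The chi-square per gene between its recovered reads and those of L42 and L43 was 171 and 284 with TGFB1 and BMP2, against 78.7 between L42 and L43, and 202 and 251 with all 3 ligands, against 59.6. Without the treated L46 library 18 members passed in each comparison, against 17 and 18 with it, while the calls over all genes went from 6596 to 7617 without TNF and from 6278 to 7558 with it. Without TNF 16 of 26 members rose and 1 fell, against 56.7% of all genes in either direction (28.0% higher and 28.7% lower). With TNF in both arms 18 of 27 rose and none fell by limma, edgeR or DESeq2, also at an unadjusted p below 0.05 by limma, against 54.1% of all genes (26.4% higher and 27.7% lower). The median difference of the members was 1.25 without TNF and 1.18 with it, against -0.02 and -0.03 over all genes. Some genes reached 1 CPM on average only through 1 of the groups (Col1a1 and Itgam without TNF, and Col7a1, Itga9 and Itgb8 with it), which leaves 15 that rose in each setting and none that fell. The 2 comparisons share no libraries, but they use the same 3 lines. Of the members tested in both tables, 15 rose in each and 14 of them (93.3%) were the same, against 87.0% and 92.9% of all genes that rose. Col4a5 rose only without TNF and Lamc1 only with it, which is no test of a difference between the settings. With the line as a block 21 and 20 passed, against 62.1% and 60.9% of all genes.

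Lama3 and Lamb3 were among the members that rose most. Lama3 stood at 98.4, 78.4 and 133 CPM in vehicle-treated L42, L43 and L46 and at 1587, 2352 and 961 CPM with TGFB1 and BMP2, a 15.8-fold change of the means (3.91, SE 0.34, adjusted p = 0.0011). The lowest treated line lay far above the highest vehicle line, and the order of the lines reversed: L46 was highest before treatment and lowest after it. Lamb3 went from 236, 208 and 266 CPM to 1269, 1462 and 928 CPM (2.34, SE 0.19, adjusted p = 0.0011). The same reversal of the lines was seen for Lamb3. The levels of these chains also came closer to equal levels: per kb of exon Lamb3 stood at 3.25 to 4.31 times Lama3 in vehicle and at 1.01 to 1.57 times Lama3 in treated colonoids, and treated levels per kb averaged 184 for Lamb3 and 152 for Lama3. Lama5 averaged 28.1 per kb. With TNF in both arms Lama3 rose from 159, 115 and 211 CPM to 2391, 3624 and 1284 CPM (3.82, SE 0.40, adjusted p = 0.0016).

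The other laminin chains moved less. Lamc1 stood at 0.55 without TNF (adjusted p = 0.054, and 0.011 with the line as a block) and at 0.64 with TNF (adjusted p = 0.045). That last call was lost without either of L42 and L43 in the TNF group or without any 1 line in the group given all 3 ligands. Lama5 passed only with the block and without TNF (0.45, adjusted p = 0.02, and 0.28 without the block). Lamb1 went from 1.89 to 10.4 CPM in L42, while L43 went from 1.17 to 1.02 and L46 from 1.34 to 1.33, and it did not pass. Under TNF it was at 1.8, 1.28 and 0.95 CPM and then 9.2, 3.35 and 1.5 CPM (1.05, adjusted p = 0.11, and 0.043 with the block). Lamb2 did not pass in either setting (-0.06 and 0.11).

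Of 12 integrins listed without TNF, 9 rose and 1 fell, against 28.0% and 28.7% of all genes. Itgav went from 74.1, 64.6 and 82.3 CPM to 488, 538 and 349 CPM, a 6.22-fold change of the means (2.60, SE 0.18, adjusted p = 9.7e-04). Its partner Itgb6 went from 34, 29.5 and 28.9 CPM to 163, 188 and 103 CPM (2.22, SE 0.22, adjusted p = 0.0014). The hemidesmosome pair followed, Itgb4 from 299.5, 222 and 405 CPM to 1132, 1377 and 1026 CPM (1.96, SE 0.23, adjusted p = 0.0019) and Itga6 from 447, 454 and 480.3 CPM to 1181, 1610.0 and 1059 CPM (1.45, SE 0.17, adjusted p = 0.0018). Treated and vehicle libraries did not overlap for any of the 9, while 33.5% of all genes lay higher without overlap. Itga2 rose by 1.77 (SE 0.17), Itgb5 by 1.37 (SE 0.19), Itgb1 by 1.33 (SE 0.18), Itga5 by 1.27 (SE 0.26) and Itga3 by 1.03 (SE 0.12). The leukocyte chain Itgam fell from 2.85, 1.85 and 1.8 CPM to 0.491, 0.153 and 0.278 CPM (-1.27, SE 0.21, adjusted p = 0.004). Itga7 passed only with the block (-0.41, adjusted p = 0.022, and 0.076 without). Under TNF, where 26.4% of all genes were higher, the same 9 rose, with Itgav at 2.61 (SE 0.25) and Itgb6 at 2.18 (SE 0.24). There Itgb8 also rose, from 0.3, 0.505 and 0.634 CPM to 2.09, 2.34 and 2.04 CPM, a 4.5-fold change of the means. On the log2(CPM + 1) scale Itgb8 differed by 1.098 (SE 0.16, adjusted p = 0.0033). Itga9, a tenascin receptor subunit, rose there as well (1.62, SE 0.25, adjusted p = 0.0035).

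Few collagens were listed in colonoids. Col18a1, a basement membrane collagen, went from 34.7, 8.86 and 27.5 CPM to 184, 62.6 and 127 CPM (2.41, SE 0.57, adjusted p = 0.012), L43 being the lowest line before and after. Col1a1 rose from 0.176, 0.0 and 0.275 CPM to 2.19, 2.86 and 1.87 CPM (1.52, SE 0.20, adjusted p = 0.0023), while no other fibril chain of types I, III or V was listed. Col4a5 rose from 1.78, 0.576 and 0.825 CPM to 4.76, 3.26 and 3.22 CPM (1.23, SE 0.26, adjusted p = 0.0087). Col4a2 rose by 1.00 (SE 0.29, adjusted p = 0.023), a call lost without the vehicle library of L43 or the treated library of L42. Col4a1 passed only with the block (0.75, adjusted p = 0.0064, and 0.072 without). Under TNF, Col4a2 stood at 0.78 (SE 0.25, adjusted p = 0.037) and lost its call without L42 or L43 of the TNF group or L42 or L46 of the group given all 3 ligands, and Col4a1 again passed only with the block (0.67, adjusted p = 0.012, and 0.063 without). Col7a1 was listed only under TNF, at 0.364, 0.778 and 0.618 CPM before and 13.8, 8.52 and 1.63 CPM after (2.19, SE 0.60, adjusted p = 0.021). Its treated value was lowest in L46, and the difference was 2.91 without that library. The call was lost without any of the other 5 libraries.

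**Figure D4:**
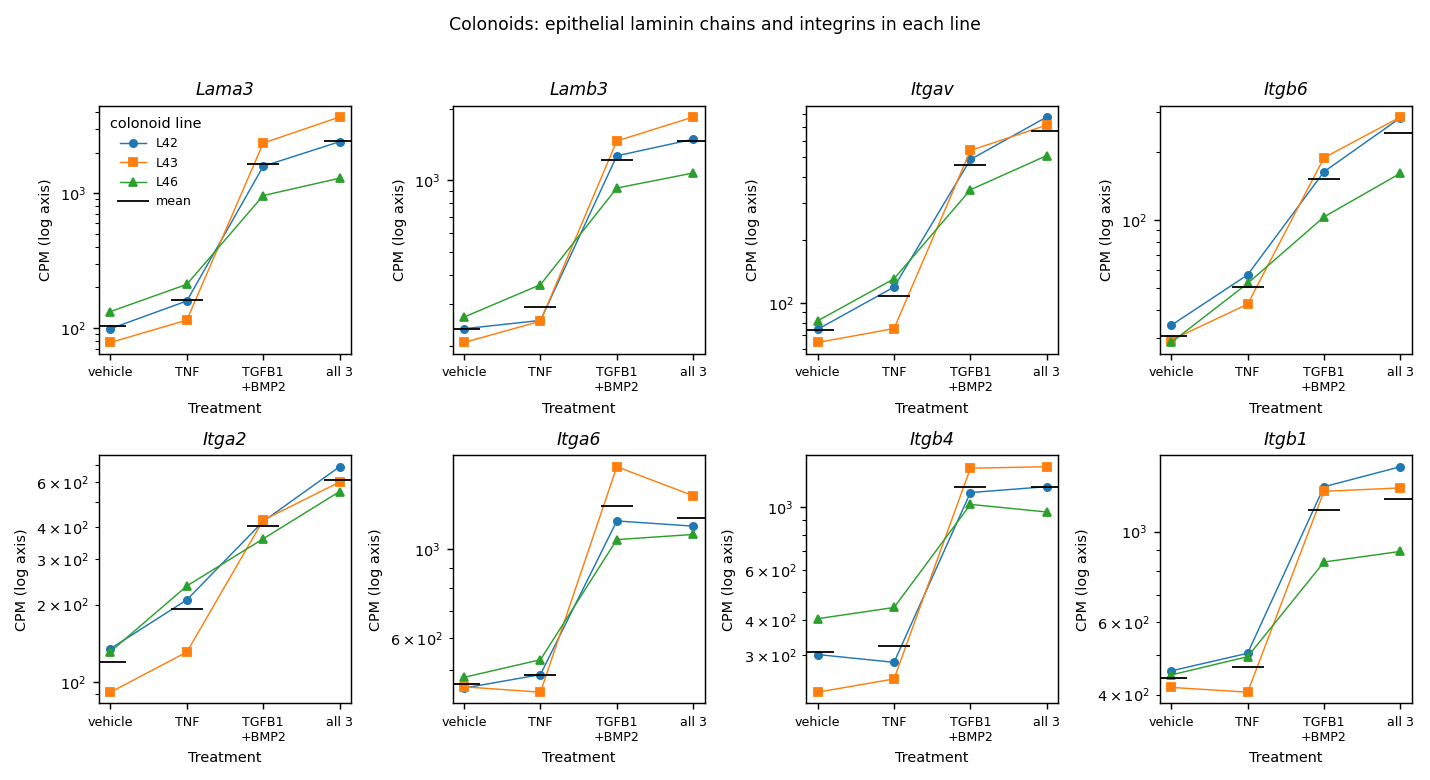
CPM (log axis) of 8 laminin and integrin genes in each colonoid line, L42 (circles), L43 (squares) and L46 (triangles), with vehicle, TNF, TGFB1 with BMP2, or all 3 ligands; bars are means of the 3 lines and the 12 libraries were put on 1 scale by TMM. Each line rose at the step to TGFB1 with BMP2, and L46 changed from the highest line for Lama3 with vehicle to the lowest with TGFB1 and BMP2.

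The effect of TGFB1 with BMP2 in colonoids was not shown to differ with TNF. In the test over 12 libraries, 0 of 22 members passed by limma, edgeR or DESeq2, 0 had an unadjusted p below 0.05 by limma, and limma called 0.0% of all genes. The intervals were wide, from -1.37 to 1.22 for Lama3, from -0.71 to 0.76 for Itgav and from -0.82 to 0.77 for Itgb6. Differences of 2-fold for Lama3 lie inside them. That fit left out the line, so its intervals also hold the spread among lines. With the line as a block, 0 of 22 members passed as well. By line (L42, L43 and L46), Lama3 rose by 4.00, 4.89 and 2.84 without TNF and by 3.90, 4.97 and 2.60 under TNF. Epithelial markers moved beside these genes. The 12 markers summed to 10050 to 11893 CPM in vehicle and 25975 to 35019 CPM in treated colonoids, with 8 higher and 3 lower (Cdx1, Tff3 and Muc2). The part of this shift in the values above was not tested. The 2 fibroblast markers listed summed to 4.16 to 5.66 CPM in vehicle and 2.96 to 7.29 CPM in treated colonoids, but they moved in opposite directions. Pdgfra went from a mean of 0.225 to 4.68 CPM (2.07, adjusted p = 0.0063) and Pdgfrb from 4.87 to 0.602 CPM (-1.92, adjusted p = 0.0028), and their part in the Col1a1 value was not tested.

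The 2 culture systems shared 22 members tested with TGFB1 and BMP2, in separate libraries and separate tables. Of these, 15 rose in colonocytes and 13 in colonoids, and 10 rose in both (66.7% and 76.9% of each). Over all genes tested in both tables, 49.4% and 27.1% of those that rose were common. The 10 included Col1a1, Col4a2, Col18a1, Lamb3, Itga5, Itgav, Itgb1, Itgb4 and Itgb5, of which Col1a1 passed the colonoid filter only through the treated group. Under TNF 14 and 13 rose and 11 were common (78.6% and 84.6%, against 48.1% and 28.6% of all genes). Among those 11, Col7a1 passed the colonoid filter only through the group given all 3 ligands. Without TNF, Lamb3, Itga5 and Itgb5 had like differences in both systems (2.11 and 2.34, 1.42 and 1.27, 1.53 and 1.37). Itgav stood at 0.21 in colonocytes and 2.60 in colonoids. Col4a5 and Itga3 passed in opposite directions, at -0.30 and -0.33 in colonocytes and 1.23 and 1.03 in colonoids. The differences between systems were not tested. Of the 21 members tested in both the knockout colon and the colonoid table, 7 rose in the knockout and 13 with TGFB1 and BMP2. Of these, 6 rose in both (85.7% and 46.2% of each), among them Lama3, Itga2, Itga6, Itgav and Itgb1, and none passed in opposite directions. Over all genes tested in both, 36.4% and 26.8% of those that rose were common. With colonocytes the knockout colon shared 20 tested members, of which 6 and 11 rose and 4 rose in both (66.7% and 36.4%, against 20.1% and 26.2% of all genes), among them Col4a1, Itgav and Itgb1. Lamb2 fell in both, and Col16a1 fell in the knockout colon and rose in colonocytes.

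**Figure D5:**
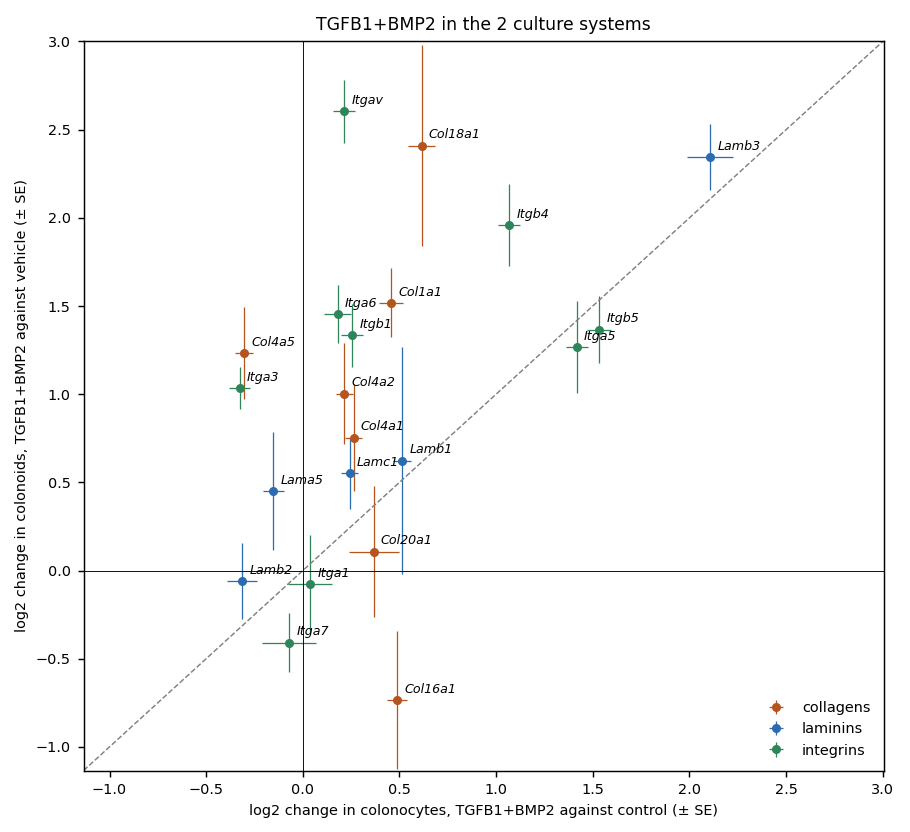
Difference in mean log2(CPM + 1) (± SE) with TGFB1 and BMP2 for 21 of the 22 members tested in both culture systems, colonocytes on the horizontal and colonoids on the vertical axis; colours mark the families and the dashed line equal differences. Lamb3, Itga5 and Itgb5 lie near the line, most others lie above it, and Itga3 and Col4a5 lie to the left of zero and above it.

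The genes that work with these families were described from 4 lists, which were chosen with earlier results of these data known. Of 27 genes of integrin adhesion and the hemidesmosome, 18 of 21 tested rose and none fell in colonoids with TGFB1 and BMP2, against 28.0% higher and 28.7% lower over all genes. Plec, the plectin that links hemidesmosomes to keratin, averaged 212 CPM with vehicle and 1036 CPM with treatment (2.26, SE 0.22), and the actin crosslinker Actn1 320.0 and 940.2 CPM (1.54, SE 0.14). The median of that list was 0.84, against -0.02 over all genes. With TNF in both arms of the colonoids 18 of 21 rose and 1 fell, against 26.4% and 27.7% of all genes. In colonocytes without TNF 11 of 26 rose and 1 fell, against 15.9% and 14.3% of all genes. Tns1, a tensin of focal adhesions, was among those that rose, at 608 and 1474 CPM. With TNF in both arms 12 of 26 rose and 2 fell, against 16.4% and 15.6% of all genes. In the knockout colon 4 of 22 rose and 4 fell, against 19.8% and 19.9% of all genes, with Actn1 higher (0.80, SE 0.09).

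Of the collagen processing genes, 11 of 25 were higher and 1 lower in colonocytes without TNF, against 15.9% and 14.3% of all genes, and 16 of 24 were higher and none lower with it, against 16.4% and 15.6%. Lox, the lysyl oxidase that crosslinks collagen, averaged 1284 and 3149 CPM without and with TGFB1 and BMP2 (1.29, SE 0.05), and Loxl1 48.7 and 90.3 CPM (0.88, SE 0.09). In colonoids 7 of 17 rose and 3 fell, against 28.0% and 28.7% of all genes, led by Pcolce2, a procollagen processing enhancer, at 0.945 and 13.7 CPM. In the knockout colon 3 of 12 rose and 4 fell, again against 19.8% and 19.9%. Other basement membrane and matrix glycoproteins were mixed. In colonocytes 7 of 18 were higher and 3 lower, against 15.9% and 14.3% of all genes, with Bgn (biglycan) at 9.71 and 37.0 CPM. In colonoids 5 of 11 were higher and 2 lower, against 28.0% and 28.7%, with Fn1 (fibronectin) at 38.1 ± 26.6 and 628 ± 587 CPM. In the knockout colon 0 of 6 rose and 3 fell, against 19.8% and 19.9% of all genes, Tgfbi most (-1.67, SE 0.16). Other matrix receptors rose in 7 of 10 cases and fell in 1 in colonoids, against 28.0% and 28.7% of all genes. Cd44, the hyaluronan receptor, stood at 180 and 598 CPM. In colonocytes 3 of 11 rose and 4 fell, against 15.9% and 14.3% of all genes, with Cd44 at 380 and 581 CPM. In the knockout colon 0 of 9 rose and 4 fell, against 19.8% and 19.9% of all genes, Rpsa most (-0.79, SE 0.11). TNF alone called 6 genes higher and 1 lower over the 4 lists in colonocytes (25, 18, 24 and 11 tested), led by the syndecan Sdc4 (0.98, SE 0.09). Over all genes 4.61% were higher and 1.67% lower. With the block there, 10 of 25 integrin adhesion genes, 5 of 18 matrix glycoproteins, 3 of 24 collagen processing genes and 4 of 11 receptors passed, against 20.3% of all genes. TNF alone called none of 58 tested in colonoids by limma without the block and 9 with it, against 0.137% and 6.14% of all genes.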

How the data were processed

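RNA of 30 samples was read after TruSeq Stranded mRNA preparation, per the series description. The authors deposited 7 tables, each comparing 2 groups, whose library columns hold a signal in CPM over an effective library size. The deposited tables also give log2 fold changes and average log2 CPM, p-values and false discovery rates, per the file headers. The submitters' processing notes name TopHat2 2.1.0, HTSeq 0.5.4p5, edgeR 3.4.2 and the build mm10; whether counting used strand is not stated there, so reads of overlapping genes cannot be told apart. Whole reads were recovered for 100% of values (tolerance 0.05 of a read) and were used for count tests.

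The genes were found by symbol pattern. Results of 1 gene that is counted among the members are not reported here. Members and lists were chosen with earlier results of these data known. The main test was limma 3.58.1 (R 4.3.3) with a mean-variance trend on log2(CPM + 1), over genes with a mean of at least 1 CPM, with Benjamini-Hochberg adjustment over the whole table and a threshold of 0.05. A fold on that scale understates changes of low genes. Interactions were fitted over the 12 libraries of a culture system after TMM scaling of the recovered reads. Named in full were, per family, the 4 largest changes in each direction among genes that passed, and a list of 23 members named whether or not they passed; from the lists of related genes at most 2 each. Alternatives were edgeR 4.0.16 and DESeq2 1.42.0 on recovered reads, other scalings, filters and pseudocounts, a replicate block and leaving out each library. Same-numbered libraries were taken as paired in colonoids (the same line, by the labels) and, from the data, in the colonocyte comparisons of TNF with control (correlations of deviations 0.27, 0.27 and 0.52) and of all 3 ligands with TNF (0.17, 0.16 and 0.41). Replicates 1 and 2 were not clearly told apart in these (0.17 and 0.22, and 0.08 and 0.22, across numbers). The colonocyte pairing therefore rests mainly on replicate 3. The fit was tested on simulated data. Gene lengths came from GENCODE vM21, as the bases covered by the exons of all transcripts of a gene.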

Additional observations from a re-analysis of the deposited data

Results flagged for a closer look

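Itga3, the laminin receptor subunit, changed in opposite directions in the 2 culture systems. With TGFB1 and BMP2 it stood at -0.33 on the log2 scale in colonocytes and 1.03 in colonoids, and with TNF in both arms at -0.29 and 0.88. All 3 libraries of the treated colonocyte group lay below all controls, and all 3 treated colonoid lines lay above all vehicle lines. Col4a5, a type IV collagen chain, stood at -0.30 in colonocytes and 1.23 in colonoids with TGFB1 and BMP2. The difference between the systems was not tested, because their tables were normalized separately. The search for single samples far from their group was not run on groups of 3.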

How the results depend on the processing

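Of 120 calls on members over the 7 tables, 104 held in every alternative in which they were tested (15 calls were not tested in some), 16 were lost in at least 1, and 0 changed direction. With a mean of at least 5 CPM required, the knockout gave 7 calls, since fewer genes are then tested. The replicate block gave 7 calls for TNF in colonocytes and 8 for TNF in colonoids, where DESeq2 gave 1 and the authors' deposited false discovery rate gave 1. Leaving out 1 library at a time gave 8 to 12 calls in the knockout, 2 to 4 for TNF in colonocytes, 31 to 38 and 34 to 38 for TGFB1 with BMP2 in colonocytes without and with TNF, 0 to 0 for TNF in colonoids, 16 to 18 and 15 to 18 for TGFB1 with BMP2 in colonoids, and 0 to 0 for both interactions. Same-numbered libraries were not taken as paired in the knockout (correlations 0.07, 0.12 and -0.01) or in colonocytes with TGFB1 and BMP2 (0.25, 0.05 and 0.25), where the block gave 11 and 38 calls. There the block added Col6a2, Itga6 and Lama4 in colonocytes (adjusted p = 0.0054, 0.013 and 0.025). In the colonocyte interaction the block called 30 genes against 1 without it, and 0 members either way.

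Over all genes, leaving out 1 library gave 400 to 1217 calls against 728 for TNF in colonocytes, and 1 to 8 against 16 in colonoids. Leaving out replicate 2 of control or of the knockout lowered the knockout calls from 4611 to 2721 and 2708, and leaving out L42 of the group given all 3 ligands lowered the colonoid calls under TNF from 6278 to 4177. Scaling by total listed reads moved the median of all genes to -0.28 and -0.27 in the colonoid comparisons with TGFB1 and BMP2 and lowered the share of higher calls among all calls from 49.5% to 28.4% without TNF, and from 52.6% to 29.8% in colonocytes; member counts under it were 17 and 37. Low genes had larger changes with a pseudocount of 0.25 or in count tests: by DESeq2 3.21 for Lama4 in the knockout, and 3.95 for Col1a1 and 3.79 for Col7a1 in colonoids. Depth limits genes under 1 CPM, and 3 libraries a group limit the interaction tests, most of all in colonoids. There the intervals of the main fit also hold the spread among lines.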
